A study of Mus musculus with 12 samples.

Results

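Calcium cycling through the sarcoplasmic reticulum was followed as 10 genes in mouse ventricle RNA sequencing: Atp2a2, Pln, Ryr2, Casq2, Slc8a1, Cacna1c, Hrc, Trdn, Jph2 and Asph. They were taken by symbol from a table of 39210 genes, and 9 of them were among the 13960 genes with enough reads to test. The 10th, Slc8a1, was listed at 0 in most libraries and was not tested. Hypoxia mice were C57BL/6 animals of both sexes whose chamber oxygen was brought down in daily steps of 1% over 14 days to 7% and then held at 7% for 2 weeks. Normoxia mice of the same strain breathed room air at 20.9% oxygen for 4 weeks. The 4 groups, male hypoxia, male normoxia, female hypoxia and female normoxia, had 3 libraries each, from frozen ventricular tissue in which the labels do not separate left from right. The labels do not state whether replicates are different animals, so each p-value reflects only how far these libraries scatter, and that scatter may be technical. They name no sequencing batch.

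In a heart muscle cell, calcium enters through L-type channels during the action potential and opens the ryanodine receptor of the neighbouring reticulum, which releases the calcium that drives contraction. Relaxation follows as a pump in the reticulum membrane takes calcium back and an exchanger in the surface membrane sends the rest out of the cell. Binding proteins in the reticulum lumen store the calcium, and anchoring proteins hold the release channel and the surface channel in register.

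Library totals ranged from 14915800 to 19397900 estimated counts. Levels are given as CPM, the estimated counts scaled to a common library size after TMM correction, and comparisons between genes use TPM, which also corrects for transcript length. All 17 cardiomyocyte structure markers were detected in every library, with a summed level of 65283 to 81546 TPM in hypoxia and 64343 to 75105 TPM in normoxia. With both sexes averaged, 3 of these 17 markers fell and 0 rose in hypoxia. In the same contrast 6 of 8 fibroblast, 7 of 8 endothelial and 5 of 5 erythroid markers rose. Of all genes tested, 12.9% were lower and 15% higher. Fibroblast markers rose for 7 of 8 in males alone and 1 of 8 in females alone. Endothelial markers rose for 4 in males and 3 in females, and erythroid markers for 5 in each. Summed fibroblast markers were at 242 to 648 TPM in hypoxia and 198 to 263 TPM in normoxia, and summed endothelial markers at 275 to 430 TPM in hypoxia and 144 to 216 TPM in normoxia. Of 6 atrial cardiomyocyte markers, 4 were tested and all 4 rose with both sexes averaged, with a median log2 fold change of 2.64. By sex, 4 rose in males, with a median of 4.38, and 0 in females, with a median of 0.90. Called in either direction were 15.6% of all genes tested in males and 5.99% in females. The 6 include Nppa, which stressed ventricle is also known to make. Summed atrial markers were at 506 to 2272 TPM in male hypoxia and 63.6 to 112 TPM in male normoxia, and at 188 to 1241 TPM in female hypoxia and 106 to 232 TPM in female normoxia. The part of all these markers in the results on calcium genes was not tested, and in bulk tissue fewer cells of a type and less RNA per cell cannot be told apart. Male hypoxia libraries 2 and 3 stood apart by adipocyte markers, summed at 26.0 and 17.4 TPM and at most at 1.32 TPM in the other libraries, and by Sln, an atrial inhibitor of the calcium pump, at 16.2 and 11.5 CPM. Female normoxia library 3 stood apart by immediate early genes, summed at 333 TPM, against 43.8 to 97.6 TPM in the others.

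Hypoxia ventricles held less Hrc, Atp2a2, Pln and Jph2 transcript than normoxia ventricles when the effect was averaged over both sexes. These genes encode a calcium binding protein of the lumen, the reticulum pump, the pump's inhibitor and a protein that anchors the reticulum to the surface membrane. The release channel gene Ryr2, the calcium buffer gene Casq2, the L-type channel gene Cacna1c and the release channel partners Trdn and Asph did not pass the test. Of the 9 members tested, 4 were lower and 0 higher at an adjusted p under 0.05 by edgeR's quasi-likelihood test, or 44.4%, against 27.9% of all genes tested called in either direction, 12.9% lower and 15% higher. The median log2 fold change, hypoxia over normoxia, was -0.23 over the 9 members and -0.01 over all genes tested. It was negative for 9 of 9 members, against 50.6% of all genes, but 5 of the 9 (Ryr2, Casq2, Cacna1c, Trdn and Asph, none of which passed) turned positive with deposited TPM and 3 (Ryr2, Casq2 and Trdn) when libraries were scaled to cardiomyocyte structure genes. Those scalings moved the median of all genes to 0.23 and 0.17. Called genes then split into 4404 higher and 283 lower with TPM and 2634 higher and 620 lower with the structure genes, against 2100 higher and 1796 lower with TMM. Leaving out male hypoxia libraries 2 and 3 kept 1 of the 4 calls, Hrc, at a log2 fold change of -0.58 (adjusted p = 0.0278), while the share of all genes called dropped to 8.83%. With TPM 2 calls, Hrc and Atp2a2, remained, where 2.03% of all genes were called lower.

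**Figure D1:**
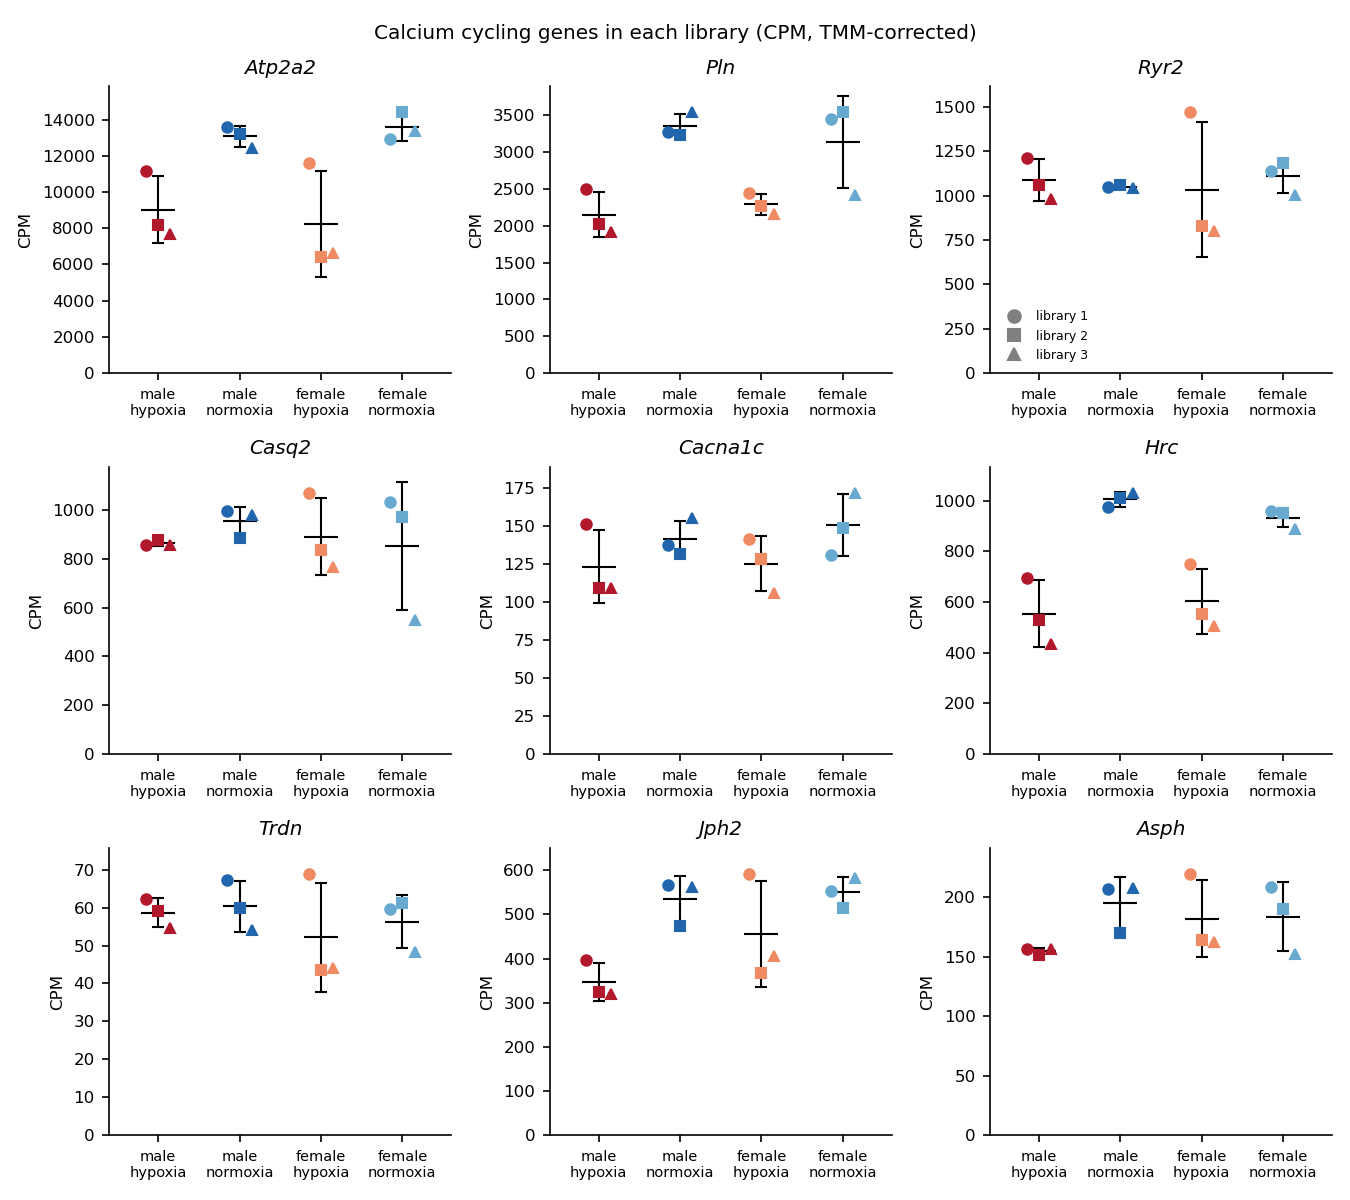
CPM of the 9 tested genes in each of the 12 libraries, with the group mean (horizontal line) and SD (bars, n = 3), and marker shapes for library numbers 1 to 3. Hrc and Atp2a2 lie lower in all hypoxia libraries than in any normoxia library of the same sex, while Ryr2 and Casq2 overlap between conditions in females.

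**Figure D2:**
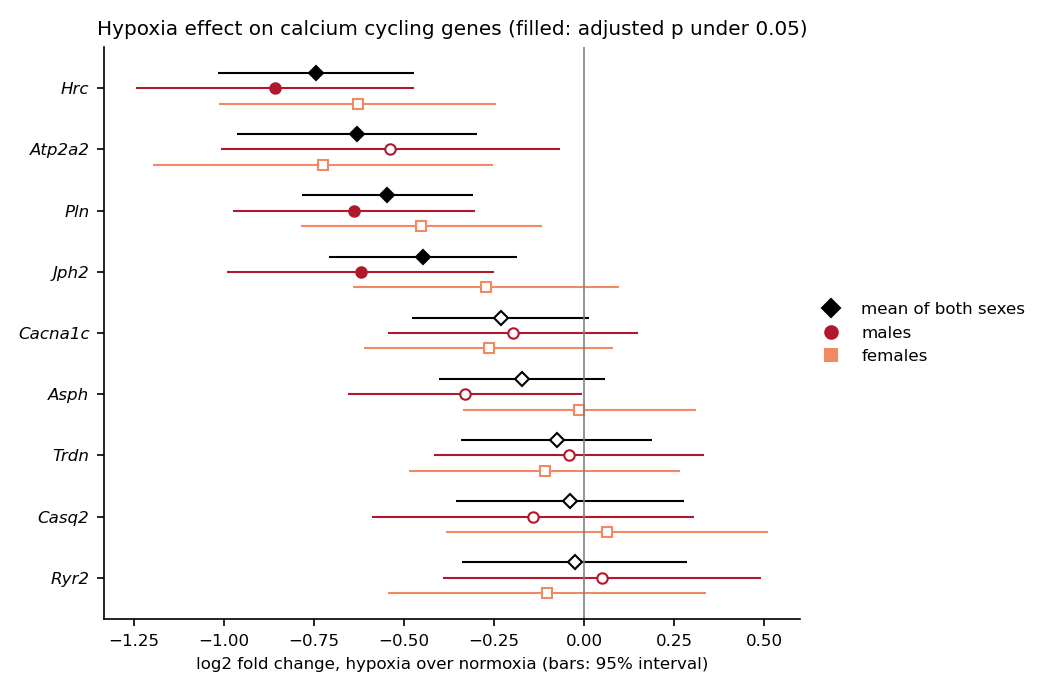
Log2 fold change, hypoxia over normoxia, of the 9 tested genes from edgeR's fit, as the mean of both sexes, in males and in females, with 95% intervals. Filled markers passed at an adjusted p under 0.05: Hrc, Atp2a2, Pln and Jph2 for both sexes together, Hrc, Pln and Jph2 in males, and none in females.

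Promoters of 3 members that fell are shown next to that of Casq2, which did not pass the test, so that the letters at the start sites can be compared. RefSeq promoter windows, 250 bases before to 50 after a start site, were at hand for 7 of the 10 genes and not for Atp2a2, Trdn and Asph. The windows printed here are from GRCm38.p6 and read 5′ to 3′ on the gene's own strand. Capitals mark the hypoxia response core (ACGTG or GCGTG), the TATA box (TATAAA) and the MEF2 motif of muscle genes, each searched on both strands; E-boxes (CANNTG) were searched too, are not capitalised, and overlap the core where it stands within CACGTG. Jph2 has a second listed start close by, whose window overlaps this one and is not shown.
Hrc (chr7:45335019-45335318, plus strand): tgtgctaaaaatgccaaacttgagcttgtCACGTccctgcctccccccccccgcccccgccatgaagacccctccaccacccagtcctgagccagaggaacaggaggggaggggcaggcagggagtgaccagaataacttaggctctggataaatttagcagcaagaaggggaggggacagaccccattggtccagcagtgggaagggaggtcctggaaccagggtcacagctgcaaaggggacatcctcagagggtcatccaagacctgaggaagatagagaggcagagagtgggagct
Pln (chr10:53337436-53337735, plus strand): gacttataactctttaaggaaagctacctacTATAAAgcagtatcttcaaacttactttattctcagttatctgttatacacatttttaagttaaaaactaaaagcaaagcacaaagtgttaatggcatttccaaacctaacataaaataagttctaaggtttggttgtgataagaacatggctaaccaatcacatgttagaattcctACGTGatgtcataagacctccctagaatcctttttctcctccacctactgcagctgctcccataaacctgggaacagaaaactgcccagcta
Jph2 (chr2:163397944-163398243, minus strand): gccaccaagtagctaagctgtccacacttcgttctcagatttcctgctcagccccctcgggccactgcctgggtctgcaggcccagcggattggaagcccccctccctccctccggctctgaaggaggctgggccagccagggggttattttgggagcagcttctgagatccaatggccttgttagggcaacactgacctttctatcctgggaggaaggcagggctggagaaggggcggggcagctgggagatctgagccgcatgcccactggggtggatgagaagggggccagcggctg
Casq2 (chr3:102086165-102086464, plus strand): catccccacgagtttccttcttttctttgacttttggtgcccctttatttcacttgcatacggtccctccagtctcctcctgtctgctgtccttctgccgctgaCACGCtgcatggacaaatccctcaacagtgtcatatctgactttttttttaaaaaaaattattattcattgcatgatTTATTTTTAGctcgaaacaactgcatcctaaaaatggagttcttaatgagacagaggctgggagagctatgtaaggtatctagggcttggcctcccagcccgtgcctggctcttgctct
The core occurred once in the Hrc window, once in the Pln window and once in the Casq2 window, and not in the Jph2 window. Of 32851 windows of the same length, 43.8% held the core, 13.6% the TATA box, 3.19% the MEF2 motif, and 72.3% held an E-box. Among windows not printed, it also occurred in those of Ryr2 and Slc8a1 and in one listed for Cacna1c. The core stood in windows of members that passed the test, of members that did not pass, and of the untested Slc8a1. It was common among all promoters, and its part in the changes was not tested. A match is a description of these letters and not a bound site.

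The pump itself, Atp2a2 (ENSMUSG00000029467), encodes SERCA2, the enzyme that returns calcium to the reticulum. It stood at 11146, 8201 and 7711 CPM in male hypoxia libraries 1 to 3, against 13608, 13225 and 12456 CPM in male normoxia. In females it stood at 11593, 6435 and 6625 CPM in hypoxia and at 12943, 14426 and 13396 CPM in normoxia. Each hypoxia library lay below each normoxia library of the same sex, and library 1 of each hypoxia group lay closest to normoxia. With both sexes averaged, Atp2a2 was 1.55-fold lower, a log2 fold change of -0.63 (SE 0.15, adjusted p = 0.0109 by edgeR). Over the 25 alternatives its log2 fold change ran from -0.79 to -0.36, and the call was lost without male hypoxia libraries 2 and 3 (-0.48, adjusted p = 0.126). In TPM the male groups overlapped, at 1863, 1742 and 1415 TPM in hypoxia and 1860, 1953 and 1715 TPM in normoxia.

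Phospholamban, from Pln (ENSMUSG00000038583), holds the pump back until it is phosphorylated. Male hypoxia libraries had 2501, 2029 and 1921 CPM and male normoxia libraries 3275, 3237 and 3544 CPM. Female hypoxia libraries had 2444, 2271 and 2157 CPM and female normoxia libraries 3450, 3543 and 2411 CPM. The male groups did not overlap, and in females the lowest normoxia library, number 3, lay between hypoxia libraries 1 and 2. Pln was 1.46-fold lower over both sexes, a log2 fold change of -0.55 (SE 0.11, adjusted p = 0.00442 by edgeR). Without male hypoxia libraries 2 and 3 its value was -0.44 (adjusted p = 0.0648), and with TPM -0.23 (adjusted p = 0.112 by limma).

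The ratio of inhibitor to pump transcript did not pass the test. Pln TPM over Atp2a2 TPM averaged 0.443 ± 0.0256 in male hypoxia and 0.474 ± 0.0428 in male normoxia (SD, n = 3 each). In females it averaged 0.543 ± 0.134 in hypoxia and 0.425 ± 0.0820 in normoxia (SD, n = 3 each). The difference in mean log2 ratio, hypoxia minus normoxia, was 0.12 over both sexes (p = 0.445, two-sided exact permutation test within sexes, smallest possible p = 0.005). It was -0.09 in males (p = 0.6) and 0.34 in females (p = 0.3) by the same exact test, for which 3 libraries against 3 cannot give a p below 0.1. The female libraries were spread most, with 0.391, 0.644 and 0.595 in hypoxia and 0.490, 0.453 and 0.333 in normoxia.

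**Figure D3:**
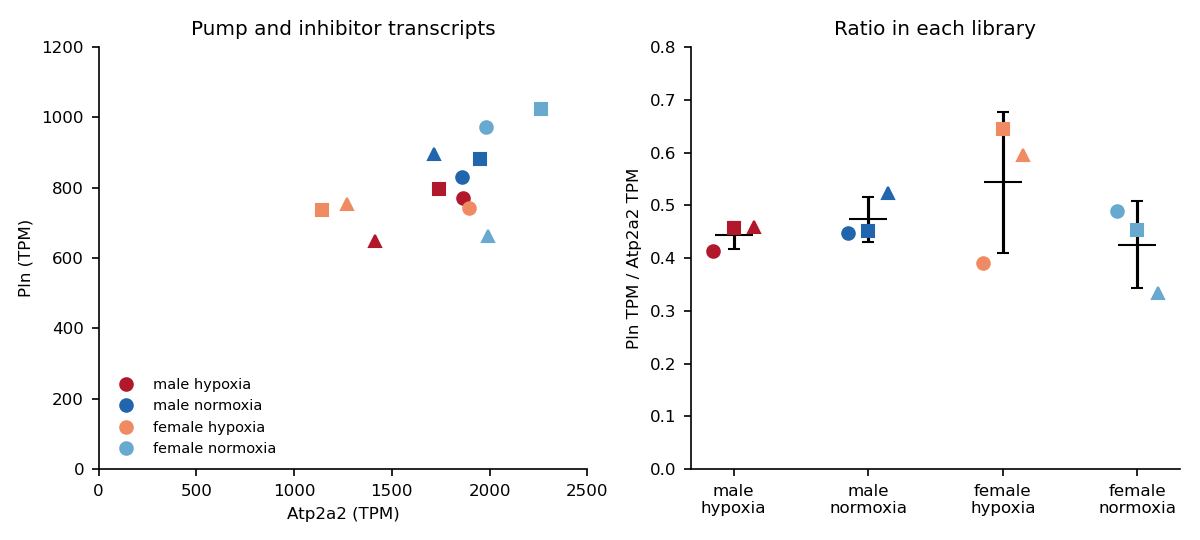
Left, Pln against Atp2a2 in TPM for the 12 libraries; right, Pln TPM divided by Atp2a2 TPM in each library, with group mean and SD (n = 3). Female hypoxia libraries 2 and 3 hold the highest ratios, 0.644 and 0.595, and female normoxia library 3 the lowest, 0.333.

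Of the genes for calcium binding proteins of the lumen, Hrc passed the test and Casq2 did not; the difference between them was not tested. Hrc (ENSMUSG00000038239), the histidine-rich protein that binds calcium and also contacts the pump and triadin, had the most negative log2 fold change of the 9 in the averaged and male contrasts, and Atp2a2 in the female one. It stood at 696, 529 and 435 CPM in male hypoxia, against 973, 1010 and 1030 CPM in male normoxia. In females it stood at 749, 554 and 505 CPM in hypoxia and 958, 951 and 889 CPM in normoxia. No hypoxia library reached a normoxia library of its sex. Hrc was 1.68-fold lower, a log2 fold change of -0.74 (SE 0.12, adjusted p = 0.00203 by edgeR), and passed in all 25 alternatives, at -0.84 to -0.46. Hrc and Atp2a2 were the 2 of 9 members (22.2%) below normoxia without overlap in both sexes, against 6.92% of all genes tested.

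Casq2 (ENSMUSG00000027861) encodes cardiac calsequestrin, the main calcium store of the lumen. It had 856, 877 and 857 CPM in male hypoxia and 995, 885 and 978 CPM in male normoxia, so that the male groups were close but did not overlap. Female hypoxia libraries had 1069, 834 and 768 CPM and female normoxia libraries 1033, 972 and 550 CPM, with normoxia library 3 the lowest of all 12. The averaged log2 fold change was -0.04 (95% interval -0.35 to 0.28, adjusted p = 0.863 by edgeR).

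Among the genes of the release unit, the anchor Jph2 passed the test and the channel Ryr2 did not. Ryr2 (ENSMUSG00000021313), the ryanodine receptor through which the reticulum releases calcium, had 1215, 1061 and 982 CPM in male hypoxia and 1047, 1058 and 1043 CPM in male normoxia. Female hypoxia libraries had 1471, 829 and 801 CPM and female normoxia libraries 1139, 1185 and 1005 CPM. Male normoxia libraries lay close together, while female hypoxia library 1 was the highest of all 12 and libraries 2 and 3 of that group the lowest. The averaged log2 fold change of Ryr2 was -0.03 (95% interval -0.34 to 0.29, adjusted p = 0.908 by edgeR). In TPM male hypoxia, at 41.3 to 51.8 TPM, lay above male normoxia, at 32.9 to 35.8 TPM, and the female groups overlapped. In the averaged contrast Ryr2 passed in 0 of the 25 alternatives.

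Jph2 (ENSMUSG00000017817) encodes junctophilin 2, which spans the gap between the surface membrane and the reticulum. It stood at 397, 324 and 320 CPM in male hypoxia and 566, 474 and 562 CPM in male normoxia. Female hypoxia libraries had 591, 368 and 406 CPM and female normoxia libraries 552, 515 and 583 CPM. The male groups did not overlap, whereas female hypoxia library 1 exceeded each female normoxia library. Jph2 was 1.36-fold lower over both sexes, a log2 fold change of -0.45 (SE 0.12, adjusted p = 0.0174 by edgeR). The call was lost with TPM (-0.15, adjusted p = 0.239 by limma) and without male hypoxia libraries 2 and 3 (-0.35, adjusted p = 0.177).

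Triadin, from Trdn (ENSMUSG00000019787), and junctin, one product of Asph (ENSMUSG00000028207), tie calsequestrin to the release channel. Trdn ranged from 54.5 to 62.2 CPM in male hypoxia and 54.0 to 67.4 CPM in male normoxia, and from 43.6 to 68.8 CPM in female hypoxia and 48.2 to 61.1 CPM in female normoxia. Its averaged log2 fold change was -0.08 (95% interval -0.34 to 0.19, adjusted p = 0.669 by edgeR). Asph ranged from 152 to 157 CPM in male hypoxia, below the 170 to 208 CPM of male normoxia. In females the Asph groups overlapped, at 163 to 220 CPM in hypoxia and 152 to 209 CPM in normoxia, and its averaged log2 fold change was -0.17 (95% interval -0.40 to 0.06, adjusted p = 0.238 by edgeR). Asph also makes the hydroxylase from which it takes its name, and a value per gene does not separate the products.

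At the surface membrane, Cacna1c (ENSMUSG00000051331) encodes the pore of the L-type channel. It ranged from 109 to 151 CPM in male hypoxia and 132 to 155 CPM in male normoxia, and from 106 to 142 CPM in female hypoxia and 131 to 172 CPM in female normoxia. Both pairs of groups overlapped, and the averaged log2 fold change was -0.23 (95% interval -0.48 to 0.01, adjusted p = 0.142 by edgeR). Without male hypoxia library 1, its highest in that group, it was -0.32 (adjusted p = 0.0392).

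The exchanger gene Slc8a1 (ENSMUSG00000054640) encodes NCX1, the main route of calcium out of a heart muscle cell. It was listed at 0 estimated counts in 10 of the 12 libraries, at 663 in female hypoxia library 1 and at 341 in male normoxia library 1. Of 7405 genes that reached at least 300 estimated counts in some library, 72 were listed at 0 in at least 1 library and 7 in at least 10. Zeros of this kind, in a gene that heart muscle is known to use, can be failed estimates, so the exchanger was left without a comparison.

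In males alone, 3 of 9 members were lower in hypoxia, Hrc, Pln and Jph2, or 33.3%, against 7.1% of all genes tested. The male log2 fold changes were -0.86 for Hrc (SE 0.18, adjusted p = 0.0107 by edgeR), -0.64 for Pln (SE 0.15, adjusted p = 0.0185) and -0.62 for Jph2 (SE 0.17, adjusted p = 0.0310). Atp2a2 was at -0.54 in males (SE 0.21, adjusted p = 0.107), and 6 of 9 members lay below normoxia without overlap, against 19.8% of all genes. The male count dropped to 1, Hrc, without any one of male hypoxia library 2, male hypoxia library 3, male normoxia library 1 or male normoxia library 3, and to 0 without male hypoxia libraries 2 and 3 together. The share of all genes called lower in males dropped as well, to between 2.51% and 3.34% with any one of these left out and to 0.109% without both male hypoxia libraries. With TPM the male count was 1, where 1.08% of all genes were lower.

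In females, 0 of 9 members passed by edgeR, against 5.99% of all genes tested. At an unadjusted p under 0.05 there were 3 members, Atp2a2, Pln and Hrc, with no share of all genes given at that threshold to set beside them. DESeq2 called 3 lower at an adjusted p under 0.05, against 12.1% of all genes in either direction and 4.63% lower by DESeq2. The female log2 fold changes were -0.73 for Atp2a2 (SE 0.22, adjusted p = 0.0670 by edgeR), -0.63 for Hrc (SE 0.18, adjusted p = 0.0573) and -0.45 for Pln (SE 0.15, adjusted p = 0.0983). Below normoxia without overlap were 2 of 9, against 12.7% of all genes. Without female hypoxia library 1, 14.5% of all genes were called in females and 4 members passed, Atp2a2 at -1.05 (adjusted p = 0.00265), Hrc at -0.81 (adjusted p = 0.0115), Jph2 at -0.50 (adjusted p = 0.0279) and Ryr2 at -0.44 (adjusted p = 0.0280). The count was 1 without female normoxia library 3 (Pln at -0.61, adjusted p = 0.0227), where 6.98% of all genes were called. It was also 1, Hrc, without male hypoxia library 1 or without male hypoxia library 3, where 5.23% and 5.25% of all genes were called.

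The libraries of a hypoxia group were not alike in how far the calcium genes had moved. Set against the normoxia mean of the same sex on the log2 scale, the median deviation of the 9 members was -0.23, -0.37 and -0.37 in male hypoxia libraries 1 to 3. It was 0.11, -0.42 and -0.47 in female hypoxia libraries 1 to 3. In female hypoxia library 1, 4 of 9 members lay below the normoxia mean, and in libraries 2 and 3 of that group 8 and 9 did. Fibroblast markers moved with this, summed at 242 TPM in female hypoxia library 1 and at 505 and 492 TPM in libraries 2 and 3, against 198 to 263 TPM in female normoxia. Atrial markers, which include Nppa, were summed at 188 TPM in female hypoxia library 1 and at 514 and 1241 TPM in libraries 2 and 3. Cardiomyocyte structure markers were summed at 81546 TPM in female hypoxia library 1 and at 69692 and 70770 TPM in libraries 2 and 3. In female normoxia the structure markers were at 65870.5 to 75105 TPM. The part of any of these markers in the result was not tested.

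**Figure D4:**
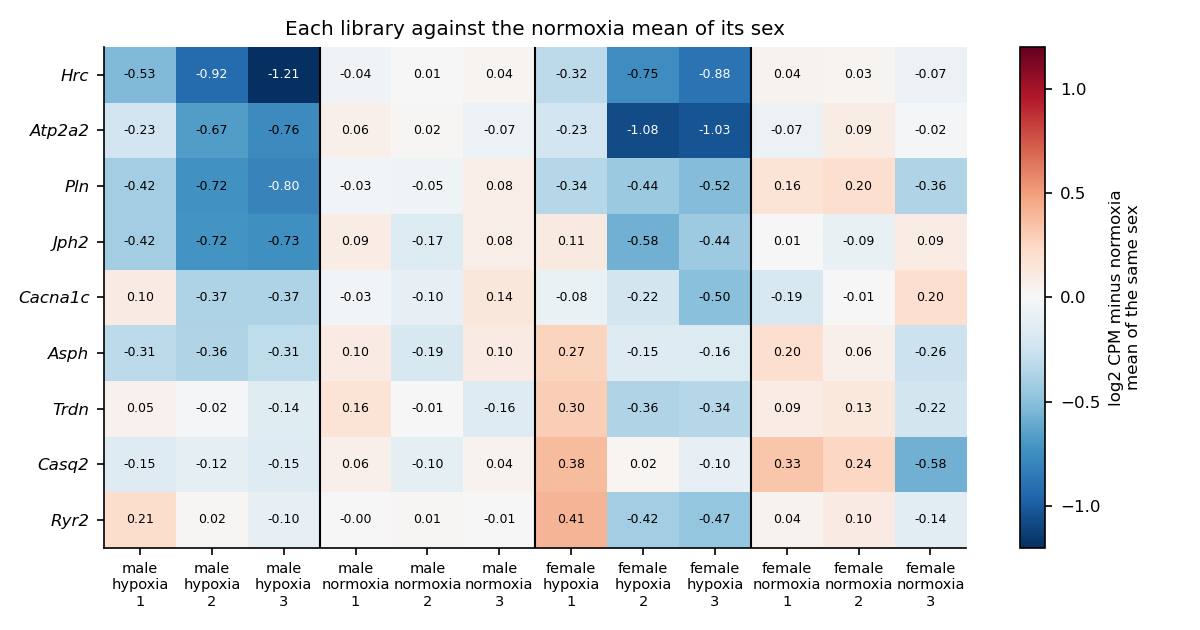
Log2 CPM of each gene in each library minus the normoxia mean of the same sex, with hypoxia groups to the left of their normoxia groups. Female hypoxia library 1 has a median of 0.11 over the 9 genes, while libraries 2 and 3 of that group have -0.42 and -0.47.

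The hypoxia effect was not shown to differ between the sexes for any member. The interaction, the female minus the male effect, passed for 0 of 9 members and for 0.00716% of all genes tested by edgeR. By DESeq2 it passed for 0 of 9 members and for 0.466% of all genes. At an unadjusted p under 0.05 by edgeR there were 0 members. For Atp2a2 the interval of the interaction ran from -0.85 to 0.48 and for Jph2 from -0.18 to 0.87, so these data do not bound a sex difference more tightly than that. Females against males gave 0 of 9 in hypoxia and 0 of 9 in normoxia by edgeR, against 0.15% and 0.0716% of all genes. DESeq2 also gave 0 of 9 in each, against 1.32% and 0.416% of all genes. At an unadjusted p under 0.05 there was 1 member in hypoxia, Jph2, and 0 members in normoxia. For the counts at an unadjusted p no share of all genes is given, so they cannot be set against a background. Jph2 averaged 455 ± 120 CPM in female hypoxia and 347 ± 43.4 CPM in male hypoxia (SD, n = 3 each), with an adjusted p of 0.481 by edgeR.

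Set on the TPM scale, the order of the 9 tested genes by mean level was the same in each of the 4 groups. Atp2a2 led with 1673 ± 232 TPM in male hypoxia, 1843 ± 120 TPM in male normoxia, 1436 ± 404 TPM in female hypoxia and 2079 ± 159 TPM in female normoxia (SD, n = 3 each). Pln followed, from 738 TPM in male hypoxia to 887 TPM in female normoxia, and then Casq2 from 276 to 337 TPM and Hrc from 181 to 251 TPM. Casq2 and Hrc overlapped in female normoxia and not in the other groups. Jph2, Asph and Ryr2 came next: Jph2 and Asph overlapped in both hypoxia groups, and Asph and Ryr2 in male hypoxia and female normoxia. Cacna1c, with group means of 13.3 TPM and above, and Trdn, at 7.57 to 9.79 TPM, were the lowest of the tested genes. The place of Trdn goes with a single transcript length of 4264 bases. Shorter forms of triadin were not resolved, so its rank may not hold for triadin as a whole. Mean pump transcript in TPM was 1.93 to 2.35 times that of its inhibitor, depending on the group.

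Members were also set against muscle transcripts alone. As a percentage of the summed TPM of the 17 cardiomyocyte structure genes, Hrc was at 0.215% to 0.283% in male hypoxia and 0.365% to 0.398% in male normoxia. In females Hrc was at 0.240% to 0.265% in hypoxia and 0.349% to 0.370% in normoxia. Atp2a2 was at 1.64% to 2.33% in female hypoxia and 2.85% to 3.02% in female normoxia. In males it overlapped, at 2.17% to 2.58% in hypoxia and 2.55% to 2.97% in normoxia. Pln and Jph2 lay below normoxia without overlap in males and overlapped in females. Ryr2 went the other way in males, at 0.0632% to 0.0668% in hypoxia and 0.0489% to 0.0544% in normoxia. Trdn also lay above normoxia in males, by a narrow margin, and both genes overlapped in females. Casq2, Cacna1c and Asph overlapped in both sexes. With library factors from these structure genes in edgeR, the averaged contrast called 4 of 9 members lower, against 4.44% of all genes.

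The deposited table also gives an average transcript length per gene and library, which moves when the mix of isoforms moves. It varied by at least 5% between libraries for 3 tested members, Casq2, Cacna1c and Asph, and limma called 0 of these 3 in hypoxia, against 0.0122% of 8214 genes tested. At an unadjusted p under 0.05 there were 0 of these 3, with no share of all genes given at that threshold. The nearest was Cacna1c with a log2 difference of -0.21 (adjusted p = 0.841 by limma). For Trdn the length was 4264 bases in all libraries, which is 250 less than a 4514-base transcript with 693 codons in the GENCODE M21 annotation. The other coding Trdn transcripts there have 56 to 305 codons. The Trdn values above thus go with a single transcript length, and shorter forms of triadin were not resolved. Asph lengths of 1744 to 2138 bases were well under the 6453 to 6694 bases of the longest Asph transcripts in that annotation.

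Around the 10 genes, 82 further calcium genes on 7 lists by role were read in the same fit, and 74 of them were tested. Over both sexes 10 rose and 9 fell, or 13.5% and 12.2%, close to the 15% and 12.9% of all genes tested, and their median log2 fold change was 0.04. Changes given by role are log2 fold changes over both sexes, tested with edgeR. With TPM the split was 31 higher and 2 lower, against 4404 higher and 283 lower among all 13960 genes tested. With structure gene factors the split was 13 higher and 5 lower, against 2634 higher and 620 lower among all genes. The last of 3 alternatives left out male hypoxia libraries 2 and 3. It leaves a single male hypoxia library, so its split is not given. No gene that passed and is named by role here changed sign under these 3 alternatives, but calls were lost. With structure gene factors Cacna2d1, Orai3 and Mcur1 no longer passed, and with TPM these 3 and also Tmem38a, Camk2a and Camk2b did not pass. Without male hypoxia libraries 2 and 3, those still passing were Ahnak, Atp2b4, Cacna1s, Camk2b, Itpr2 and Orai3.

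On the pump list 0 of 5 tested genes rose and 1 fell. That gene was Mrln, a micropeptide that inhibits the pump in skeletal muscle, at only 2 to 17 counts per library and a log2 fold change of -1.53 (SE 0.43, adjusted p = 0.0222 by edgeR). The atrial inhibitor Sln was below the threshold for testing, at 0.0662, 16.2 and 11.5 CPM in male hypoxia and at most 0.164 CPM in the 9 libraries of the other groups. On the list of the release channel complex and junction, 2 of 16 rose and 1 fell. Tmem38a, which carries potassium across the reticulum membrane while calcium is released, averaged 317 ± 40.7 CPM in male hypoxia and 455 ± 15.6 CPM in male normoxia (SD, n = 3 each). In females it averaged 336 ± 67.8 CPM in hypoxia and 441 ± 13.2 CPM in normoxia, and over both sexes it had a log2 fold change of -0.46 (SE 0.10, adjusted p = 0.00646 by edgeR). Casq1, the calsequestrin of skeletal muscle, averaged 14.1 ± 5.11 CPM in male hypoxia and 6.74 ± 0.451 CPM in male normoxia, and rose over both sexes (adjusted p = 0.0294).

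L-type channel subunits and regulators moved both ways, with 4 of 13 higher and 3 lower. Cacna1s, the pore subunit typical of skeletal muscle, averaged 4.48 ± 1.63 CPM in male hypoxia and 14.8 ± 3.42 CPM in male normoxia, and 5.39 ± 0.756 CPM in female hypoxia and 13.7 ± 4.00 CPM in female normoxia (SD, n = 3 each). Its log2 fold change was -1.54 (SE 0.20, adjusted p = 0.000682 by edgeR), and it passed in males and in females. Cacna2d1, an accessory subunit that brings the channel to the membrane, fell by 0.40 (SE 0.09, adjusted p = 0.00990). Cacnb3, an accessory beta subunit, rose by 1.34 (SE 0.28, adjusted p = 0.00580), and Ahnak, a large protein that binds the channel's beta subunit, rose by 0.52 (SE 0.10, adjusted p = 0.00402).

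Surface extrusion and store entry genes gave 3 of 8 higher and 1 lower. Atp2b4, a calcium pump of the surface membrane, averaged 36.2 ± 5.55 CPM in male hypoxia and 21.5 ± 2.78 CPM in male normoxia, and 39.9 ± 8.22 CPM in female hypoxia and 22.8 ± 1.78 CPM in female normoxia (SD, n = 3 each). Its log2 fold change was 0.78 (SE 0.12, adjusted p = 0.00121 by edgeR), it passed in both sexes, and it is known from endothelial and smooth muscle cells as well as heart muscle. Stim1, the calcium sensor of the reticulum, rose by 0.29 (SE 0.08, adjusted p = 0.0195), and the surface channel genes that it opens moved apart, with Orai1 up by 0.28 (SE 0.09, adjusted p = 0.0408) and Orai3 at -0.46 (SE 0.08, adjusted p = 0.00311).

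Of 16 kinase, phosphatase and anchor genes that act on the pump and the channels, 0 rose and 2 fell, both of them calmodulin-dependent kinase genes. Camk2a averaged 21.2 ± 4.36 CPM in male hypoxia and 49.1 ± 5.43 CPM in male normoxia, and 26.5 ± 8.77 CPM in female hypoxia and 41.2 ± 13.0 CPM in female normoxia (SD, n = 3 each). Its log2 fold change was -0.93 (SE 0.19, adjusted p = 0.00496 by edgeR), and that of Camk2b was -0.69 (SE 0.12, adjusted p = 0.00224). Camk2d, the main form in the heart, was at -0.11 (SE 0.12, adjusted p = 0.508), and at 0.19 with TPM, and was named after its value was seen. Among inositol trisphosphate receptors and reticulum binding proteins, 1 of 8 rose, the receptor Itpr2, by 0.58 (SE 0.11, adjusted p = 0.00372). Among mitochondrial calcium genes 1 of 8 fell, the uniporter regulator Mcur1, at -0.34 (SE 0.08, adjusted p = 0.0117).

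**Figure D5:**
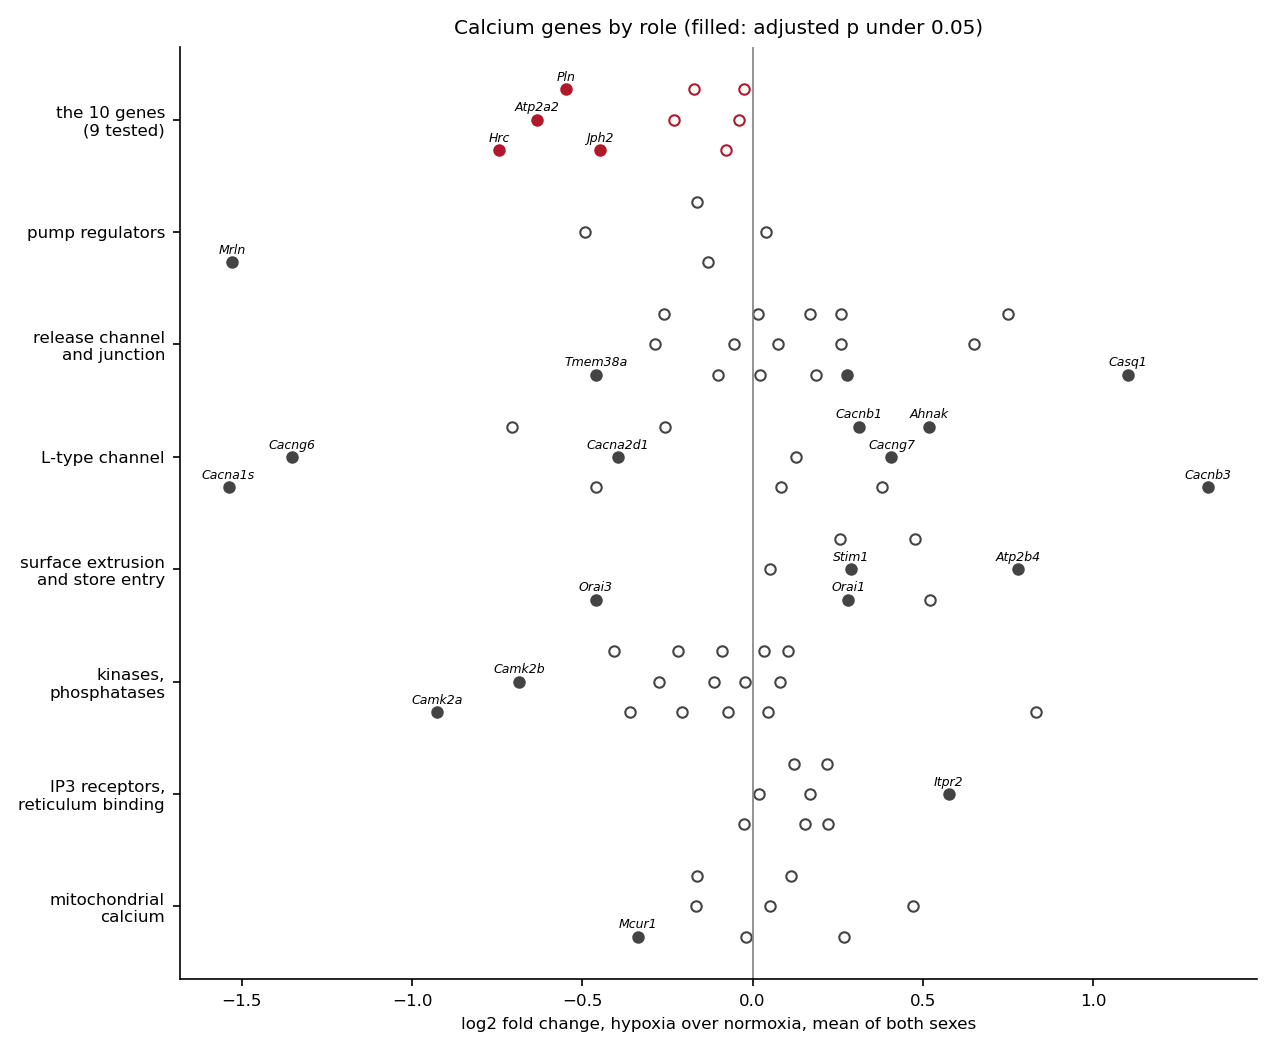
Log2 fold change, hypoxia over normoxia, mean of both sexes, for the tested genes among the 10 and for 74 further calcium genes by role; filled points passed at an adjusted p under 0.05 by edgeR. The 4 members that passed lie to the left of 0, and the 74 further genes split into 10 higher and 9 lower.

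The genes whose pattern over the 12 libraries lay closest to a member that fell were found by the root mean square difference of centred log2 CPM. For Atp2a2 they were Fyco1 (0.08), Acsl1 (0.10), which activates fatty acids, and Mut (0.11), a mitochondrial mutase. For Pln they were Psme1 (0.08), a proteasome activator subunit, Akr1e1 (0.08) and Smarcd1 (0.09), a chromatin remodelling subunit. Hrc lay closest to Crat (0.10), Pcca (0.10) and Acaa2 (0.10), all enzymes of mitochondrial acyl metabolism, and Jph2 to Ank1 (0.08), Mrps2 (0.11) and Pacsin2 (0.11). The SD of the members themselves over the 12 libraries was 0.43 for Atp2a2, 0.33 for Pln, 0.45 for Hrc and 0.33 for Jph2 on the log2 scale.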

How the data were processed

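Per the submitters' processing notes, the tools were FastQC and Salmon and the build was GRCm39; their versions and settings are not given in the sources used here. The library kit was a directional one, per the labels' protocols. Per the file headers, the deposited table holds an estimated count, a TPM value and an average transcript length for each gene and library, and 0 columns of sample values were left without a sample. Symbols came from GENCODE M21, an annotation of another build, and were found for 99.3% of genes. That annotation gave names and transcript lengths, and promoter windows came from a RefSeq table of GRCm38.p6.

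Estimated counts deposited by the authors were rounded, filtered with filterByExpr on the 4 groups and scaled by TMM factors. All 12 libraries entered 1 group-means model (8 residual degrees of freedom) in edgeR 4.0.16 under R 4.3.3, tested two-sided with glmQLFTest. Adjusted p-values are Benjamini-Hochberg values over the 13960 genes tested, with a threshold of 0.05. Standard errors come from the fold change and the F statistic. CPM has no pseudocount, and neither have the log2 deviations of members from the normoxia mean. Log2 CPM for likeness and for the check of same-numbered libraries used a prior count of 2. TPM as deposited by the authors was tested as log2(TPM + 0.5) with limma 3.58.1. Average lengths were tested with limma over genes varying by at least 5%. Alternatives were DESeq2 1.42.0, voom, other library factors and filters, TPM, length offsets, the replicate block and leaving out libraries. The edgeR and limma steps were tested on simulated data.

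The members, gene lists and alternatives were chosen with earlier results of these data known. The text names the 10 members, up to 4 genes per list with the smallest p among those that passed, and the 3 genes most like each member that passed. The values of 1 listed gene are not reported here. No pair of libraries within a group agreed within counting noise.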

Additional observations from a re-analysis of the deposited data

How the results depend on the processing

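In the averaged contrast each of the 4 members that passed kept a negative log2 fold change in all 25 alternatives, and Hrc passed in 25, Atp2a2 and Pln in 23 each and Jph2 in 22. The averaged count of 4 became 2 with TPM, 1 without male hypoxia libraries 2 and 3, and 2 when female normoxia library 3 was left out as well, where 33.6%, 8.83% and 15.96% of all genes were called in either direction. The male count of 3 became 1 with TPM (26.4% of all genes) and 0 in both of those library settings (0.450% and 1.21%). The female count of 0 became 3 with DESeq2 (12.1% of all genes), 1 with upper quartile factors (6.52%), 2 with cardiomyocyte structure factors (1.96%), 1 with the stricter filter (8.64%), 1 without male hypoxia libraries 2 and 3 (3.12%), and 2 when female normoxia library 3 was left out as well (5.09%). With the replicate block (5.73%) the female count was 2, Atp2a2 (adjusted p = 0.0447) and Hrc (adjusted p = 0.0409), while the averaged count stayed at 4. The shares above are for calls in either direction, while all members counted were lower. With TPM, 2.03% of all genes were called lower in the averaged contrast and 1.08% in males. In females 4.63% were called lower with DESeq2, 2.56% with upper quartile factors and 0.451% with structure factors. The female share lower was 3.09% with the stricter filter and 1.94% with the replicate block. Deviations of same-numbered libraries from their group means had correlations of -0.05 to 0.19 (18 pairs, 1 above 0.1). The highest was between male hypoxia library 1 and female hypoxia library 1. The numbers were not taken as pairs. With each library left out in turn, the averaged count ran from 4 to 5 and the male count from 1 to 4. The female count ran from 0 to 4 and the interaction count from 0 to 0. Over these runs the share of all genes called in either direction ran from 18.8% to 32.3% averaged and 6.16% to 21.2% in males. In females that share ran from 0.385% to 14.5%, and for the interaction from 0.00698% to 0.0349%. The Pln to Atp2a2 ratio did not pass in any alternative run, including the replicate block (p = 0.562, exact sign-flip test), and no member's average length passed. The cause of these differences was not tested. Where libraries were left out, having fewer libraries and which libraries were removed cannot be told apart. Without male hypoxia libraries 2 and 3, the single male hypoxia library remaining was taken to have the spread of the other groups.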
